A study of Mus musculus with 15 samples.

Results

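The RAB3 and RAB27 GTPases and a few of their partners were measured in bulk RNA from human breast cancer cells that had been grown as tumours in mice and sorted by how firmly they adhered. The 8 genes were 5 GTPases (RAB3A, RAB3B, RAB3D, RAB27A and RAB27B) and 3 partners (RAB3GAP1, RAB3IP and TBC1D8), out of 25382 genes in the count table. They were chosen by symbol from results of the same libraries, in which RAB3D stood higher in strongly than in weakly adherent cells. All 8 were present and all 8 passed the filter on low counts, as did 15190 genes in all. The values that prompted the choice, those of the strongly against weakly adherent comparison and those of RAB3D and TBC1D8 against unsorted cells, are given as a description with no test.

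RAB GTPases are small proteins that switch between an inactive GDP-bound and an active GTP-bound form and recruit other proteins to a given membrane. The RAB3 and RAB27 subfamilies sit on secretory vesicles and granules, where they act in the transport, docking and priming that come before fusion with the plasma membrane. They are best known from nerve terminals, exocrine and endocrine glands, mast cells, platelets and melanocytes, and RAB27A and RAB27B also act in the release of exosomes from tumour cells.

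The samples were labelled as MDA-MB-231 cells, a triple-negative breast cancer line, carrying GFP and luciferase, from primary tumours in mice labelled Nod/Skid. The tumours were dissociated before sorting, and the RNA came from all cells of a fraction. There were 4 strongly adherent libraries (numbers 4, 5, 6 and 9 in their titles), sheared at 50 dyn/cm2, 6 weakly adherent libraries (4, 5, 6, 7-8, 9 and 10), sheared at 10 dyn/cm2, and 5 unsorted libraries (4, 5, 6, 7-8 and 9), which were not sheared. The labels did not say what the title number stands for, nor whether libraries came from separate animals, so p-values measure the spread between these libraries, which may be technical in part. All groups carry the same labels of cell line, GFP and luciferase and host strain, and a single labelled line in one host limits how far the groups stand for other tumours.

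Totals ran from 30372619 to 45434799 counts per library. The 3 libraries of number 6 stood apart from the other 12. CDH1, the epithelial cadherin for whose low level MDA-MB-231 is known, ran from 0.267 to 5.56 CPM (counts scaled to the library's total) in number 6 and from 53.1 to 549 CPM in the other libraries, which goes against the label of those 12. VIM, the mesenchymal filament protein vimentin, ran from 6488 to 7397 CPM in number 6 and from 1143 to 4477 CPM in the others. The summed level of 18 striated muscle genes was 2531 CPM in strongly adherent 5, and 386, 146 and 880 CPM in the strongly adherent, weakly adherent and unsorted libraries of number 6, against 5.06 to 12.2 CPM in the other 11 libraries. Reads had been aligned to a human genome only, so host RNA could enter these counts through sequence shared by both species. Of 8 markers of mast cells and platelets, cells rich in RAB3D and RAB27 proteins, none reached 1 CPM in any library, and CPA3 and GP9 had no count at all.

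**Figure D1:**
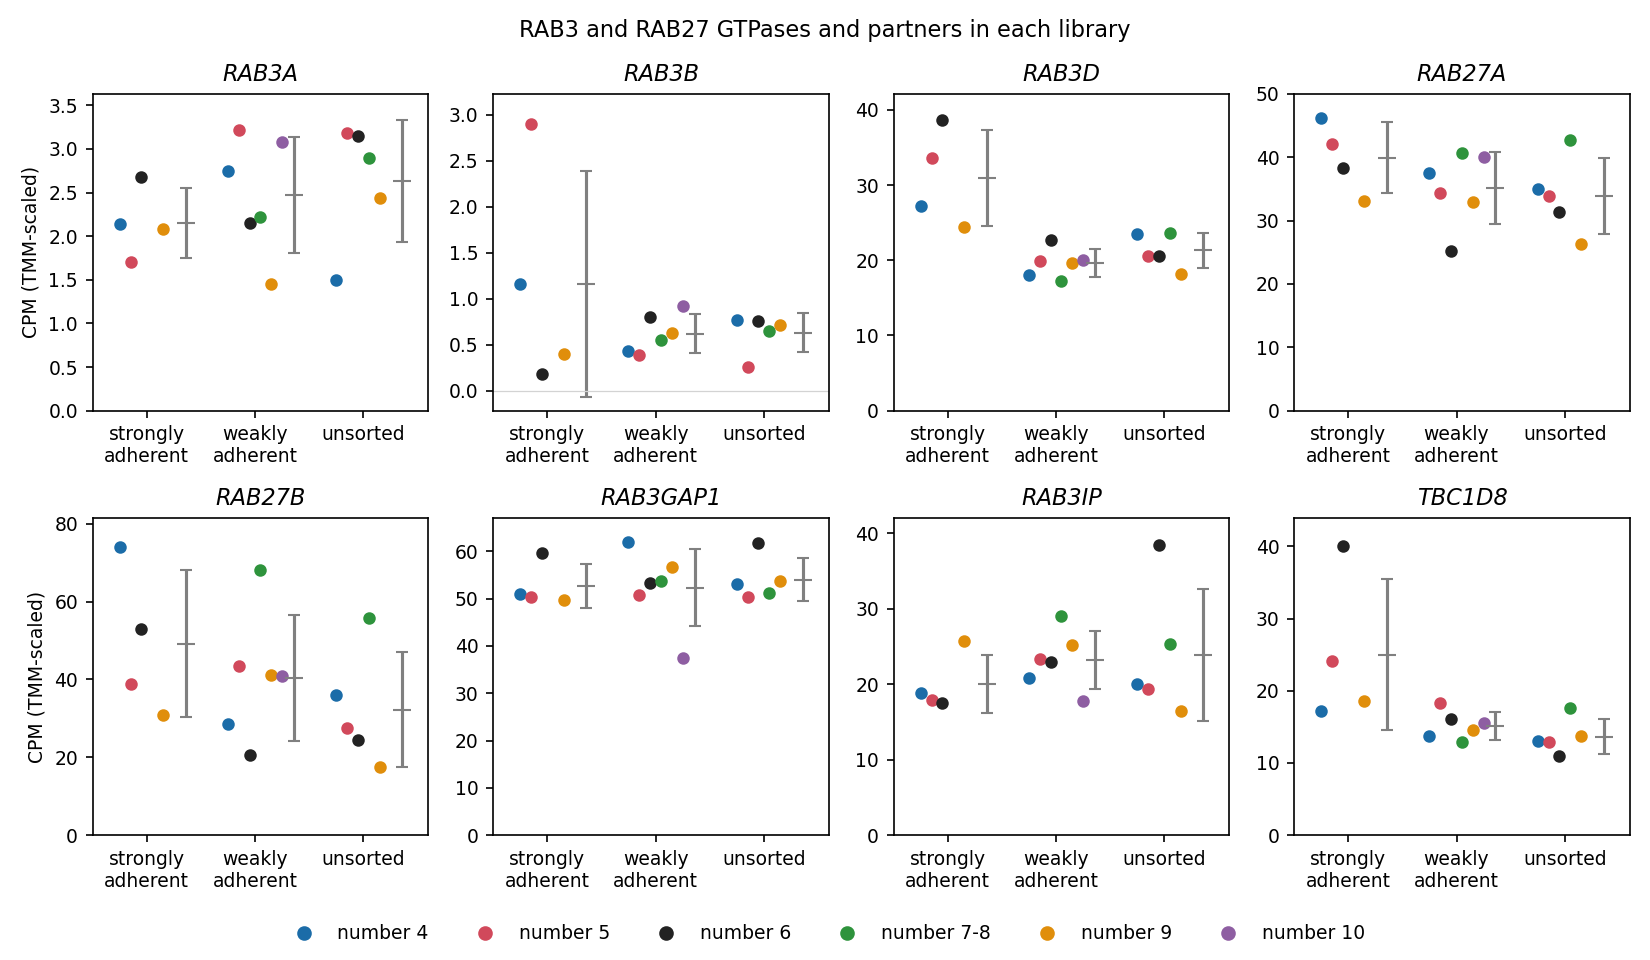
TMM-scaled CPM (vertical axis, 1 panel per gene) of the 8 genes in strongly adherent (n = 4), weakly adherent (n = 6) and unsorted (n = 5) libraries; each point is a library coloured by title number, and the grey dash and bar give mean and SD. The strongly adherent RAB3D points lie above all others, with a lowest value of 24.5 CPM against a highest of 23.7 CPM elsewhere, while the groups of each of the other 7 genes overlap.

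RAB3D, the RAB3 form found on the zymogen granules of exocrine acinar cells and on mast cell granules, was at 27.2, 33.6, 38.7 and 24.5 CPM in strongly adherent libraries 4, 5, 6 and 9. The weakly adherent libraries 4, 5, 6, 7-8, 9 and 10 had 18.1, 19.9, 22.6, 17.3, 19.6 and 20.03 CPM, and the unsorted libraries 4, 5, 6, 7-8 and 9 had 23.5, 20.5, 20.6, 23.7 and 18.2 CPM. No strongly adherent value overlapped with either other group, though the lowest, 24.5 CPM in number 9, lay close to the highest unsorted one. Group means were 31.0 ± 6.41 CPM in strongly adherent cells (SD, n = 4), 19.6 ± 1.85 CPM in weakly adherent cells (n = 6) and 21.3 ± 2.29 CPM in unsorted cells (n = 5). In bulk RNA, more cells that express a gene and more RNA per cell cannot be told apart.

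The fitted log2 fold change of RAB3D was 0.66 in strongly over weakly adherent cells and 0.54 in strongly adherent over unsorted cells, given with no error or test because these values chose the gene. Within title numbers 4, 5, 6 and 9, the log2 difference between strongly and weakly adherent libraries was 0.59, 0.75, 0.77 and 0.32, and that between strongly adherent and unsorted libraries was 0.21, 0.71, 0.91 and 0.42. Among all genes tested, 0.125% lay higher without overlap in strongly than in weakly adherent libraries, and 0.54% did so against unsorted ones; RAB3D was chosen for this pattern. Strongly adherent 5 and 6, the RAB3D-highest libraries, were also the strongly adherent libraries with muscle RNA, whereas strongly adherent 4 and 9 had 10.4 CPM of summed muscle genes each. Without number 6 and strongly adherent 5, the log2 fold changes were 0.43 over weakly adherent and 0.26 over unsorted cells. Unsorted 6 had 880 CPM of muscle RNA and 20.6 CPM of RAB3D; the part of muscle RNA in the difference was not tested beyond these values. Weakly adherent over unsorted cells gave a log2 fold change of -0.12 ± 0.12 (SE) for RAB3D, with a 95% interval from -0.38 to 0.14. The adjusted p was 0.9998 in edgeR's quasi-likelihood test with Benjamini-Hochberg adjustment. Both groups of values also stood in the comparisons that chose the gene, so this test is not independent of the choice.

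RAB3A, the RAB3 form of synaptic vesicles, was at 2.14, 1.70, 2.67 and 2.09 CPM in strongly adherent libraries 4, 5, 6 and 9, at 2.74, 3.22, 2.15, 2.22, 1.45 and 3.08 CPM in weakly adherent libraries 4, 5, 6, 7-8, 9 and 10, and at 1.501, 3.18, 3.15, 2.90 and 2.44 CPM in unsorted libraries 4, 5, 6, 7-8 and 9. The groups overlapped over most of their range, and no fraction stood out. RAB3B, known from endocrine and epithelial cells, was the lowest-counted of the 8, with 7 to 138 counts per library. Its values were 1.16, 2.90, 0.187 and 0.405 CPM in strongly adherent libraries, 0.434, 0.395, 0.798, 0.555, 0.625 and 0.928 CPM in weakly adherent libraries and 0.767, 0.261, 0.763, 0.650 and 0.711 CPM in unsorted libraries, in the same orders of title number. Strongly adherent 5 held the highest and strongly adherent 6 the lowest RAB3B value of all 15 libraries. The log2 fold change of RAB3B was 0.91 in strongly over weakly adherent cells and 0.90 ± 0.59 (SE) over unsorted cells, and without strongly adherent 5 these were -0.08 and -0.09. Markers of neuroendocrine cells, in which both genes are at home, summed to 64.9 to 184 CPM in strongly adherent libraries, 106 to 150 CPM in weakly adherent and 96.3 to 197 CPM in unsorted libraries.

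RAB27A carries melanosomes in pigment cells and lytic granules in cytotoxic lymphocytes. It was at 46.2, 42.1, 38.2 and 33.1 CPM in strongly adherent libraries 4, 5, 6 and 9, at 37.4, 34.3, 25.2, 40.7, 32.9 and 40.0 CPM in weakly adherent libraries 4, 5, 6, 7-8, 9 and 10, and at 34.9, 33.8, 31.3, 42.7 and 26.3 CPM in unsorted libraries 4, 5, 6, 7-8 and 9. The groups overlapped, yet within each of the 4 shared numbers the strongly adherent library lay above the unsorted one by 0.40, 0.32, 0.29 and 0.33 on the log2 scale. Over all libraries that log2 fold change was 0.24 ± 0.16 (SE), with an interval from -0.09 to 0.57. It did not pass the test (adjusted p = 0.975, edgeR), in a fit that did not pair libraries by number. With the number as a replicate block, edgeR called no gene there and DESeq2 called 23, RAB27A not among them. Against weakly adherent libraries RAB27A lay higher by 0.30, 0.29, 0.60 and 0.01 in numbers 4, 5, 6 and 9. That fitted log2 fold change was 0.19, given as a description. RAB27B, the closest relative of RAB27A and known from platelet and mast cell granules, was at 74.0, 38.7, 53.0 and 30.9 CPM in strongly adherent libraries, at 28.6, 43.4, 20.7, 68.1, 41.1 and 40.9 CPM in weakly adherent libraries and at 36.02, 27.6, 24.4, 55.7 and 17.6 CPM in unsorted libraries, in the same orders. Strongly adherent 4 and both libraries of number 7-8 held the highest RAB27B values, so that every group spanned a wide range and all 3 overlapped.

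The log2 fold change of RAB27B was 0.61 ± 0.36 (SE) in strongly adherent over unsorted cells, with an interval from -0.17 to 1.39 and an adjusted p of 0.975 in edgeR. The strongly adherent library lay above the unsorted one in 4 of 4 title numbers, by 1.04, 0.49, 1.12 and 0.81. Against weakly adherent cells the log2 fold change was 0.28, and without strongly adherent 4 it was 0.02, while against unsorted cells it was then 0.34.

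RAB3GAP1, the catalytic subunit of the complex that switches RAB3 proteins off, was at 50.9, 50.3, 59.5 and 49.6 CPM in strongly adherent libraries 4, 5, 6 and 9, at 62.0, 50.8, 53.3, 53.6, 56.7 and 37.5 CPM in weakly adherent libraries 4, 5, 6, 7-8, 9 and 10, and at 53.0, 50.3, 61.7, 51.2 and 53.7 CPM in unsorted libraries 4, 5, 6, 7-8 and 9. The single library of number 10 was the lowest, and the 3 groups otherwise covered nearly the same range. RAB3IP, or Rabin8, is an exchange factor that activates RAB8 and is known from the formation of primary cilia. It was at 18.9, 17.9, 17.5 and 25.7 CPM in strongly adherent libraries, at 20.8, 23.3, 22.9, 29.1, 25.1 and 17.7 CPM in weakly adherent libraries and at 20.1, 19.4, 38.5, 25.3 and 16.4 CPM in unsorted libraries, in the same orders. Unsorted 6 was the highest RAB3IP library, and the groups overlapped.

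TBC1D8 has the TBC domain found in proteins that switch RABs off. It was at 17.3, 24.2, 40.0 and 18.6 CPM in strongly adherent libraries 4, 5, 6 and 9, at 13.7, 18.4, 16.1, 12.9, 14.5 and 15.5 CPM in weakly adherent libraries 4, 5, 6, 7-8, 9 and 10, and at 13.0, 13.0, 10.9, 17.6 and 13.8 CPM in unsorted libraries 4, 5, 6, 7-8 and 9. The high value was strongly adherent 6, and strongly adherent 4 lay below weakly adherent 5 and unsorted 7-8. The log2 fold change was 0.72 in strongly over weakly adherent cells and 0.87 over unsorted cells, given as a description. Without strongly adherent 6 these were 0.40 and 0.55, and without number 6 and strongly adherent 5 they were 0.25 and 0.32. Between weakly adherent and unsorted cells the log2 fold change of TBC1D8 was 0.15 ± 0.19 (SE), with an interval from -0.26 to 0.56. As for RAB3D, both groups of values also stood in the comparisons that prompted the choice.

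**Figure D2:**
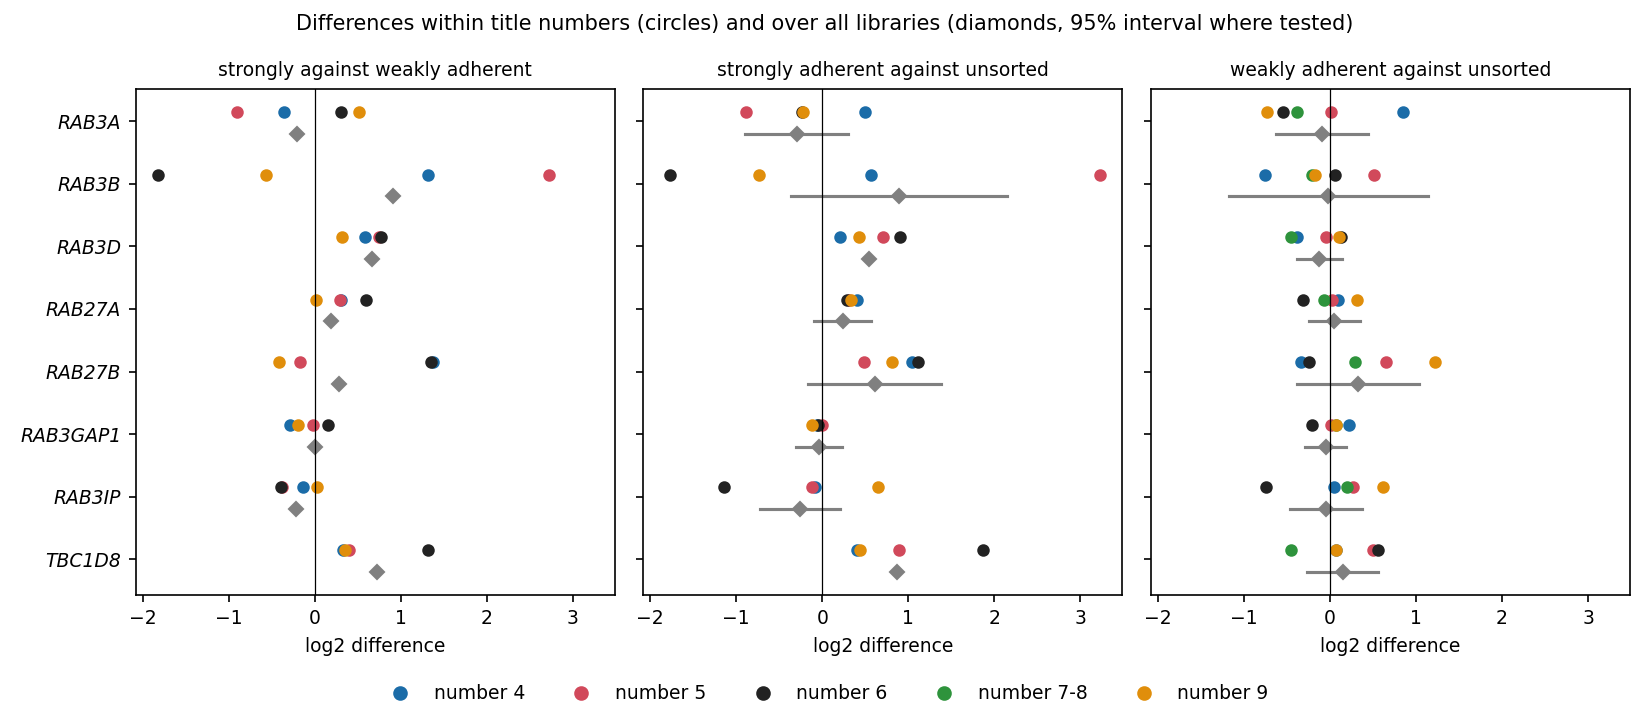
Log2 differences (horizontal axis) of the 8 genes in strongly against weakly adherent, strongly adherent against unsorted and weakly adherent against unsorted cells; circles are single title numbers and grey diamonds with bars the fitted log2 fold change over all 15 libraries, with its 95% interval where the gene was tested. RAB3D, TBC1D8 and RAB27A lie right of 0 in both comparisons of strongly adherent cells. The RAB27A circle of number 9 against weakly adherent cells is at 0.01. RAB27B lies right of 0 in 4 of 4 title numbers of strongly adherent against unsorted cells. The fitted intervals of RAB27A and RAB27B against unsorted cells include 0, and RAB3B has the widest spread of the 8.

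No gene passed an adjusted p of 0.05 in edgeR's test of any adhesion comparison, so the background was 0% in each. At an unadjusted p under 0.05 there were 366 genes between strongly and weakly adherent cells, 572 between strongly adherent and unsorted cells and 81 between weakly adherent and unsorted cells, and DESeq2 with the adhesion group alone also called 0 genes in each. Of the 6 genes tested between strongly adherent and unsorted cells, 0 passed, and of the 8 tested between weakly adherent and unsorted cells, 0 passed. RAB3A had a log2 fold change of -0.30 ± 0.28 (SE) in strongly adherent over unsorted cells, RAB3GAP1 -0.04 ± 0.12 and RAB3IP -0.26 ± 0.22. In weakly adherent over unsorted cells the largest was that of RAB27B, 0.33 ± 0.33 with an interval from -0.38 to 1.03. Since both comparisons use the same unsorted libraries, their values are not independent of each other. Each also shares sorted libraries with the comparison that chose the genes.

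In edgeR, title numbers separated many genes but none of these 8 at the threshold. In a joint test of the 6 numbers with adhesion in the model, 7.9% of all genes passed and 0 of the 8 did. Adjusted p-values in edgeR were 0.113 for RAB27A, 0.168 for RAB27B and 0.186 for RAB3GAP1. Without weakly adherent 9, 1 of the 8 passed. The count of all genes in that fit is not given here, and it ran from 386 to 1621 with 1 library left out. With all libraries the count of all genes passing was 1200. It fell to 637, 386, 749, 591 and 670 without strongly adherent 4, strongly adherent 6, unsorted 4, unsorted 6 and unsorted 9. Without all of number 6 it was 3. DESeq2 called 3344 genes and 2 of the 8 in the joint test. Number 6 against the mean of the other numbers had 27.9% of all genes past the threshold (11.6% higher and 16.4% lower), and again 0 of the 8. RAB27A ran from 25.2 to 38.2 CPM in number 6 and from 26.3 to 46.2 CPM in the other 12 libraries, with a log2 fold change of -0.30 ± 0.11 (SE, adjusted p = 0.0632, edgeR). RAB3GAP1 ran from 53.3 to 61.7 CPM in number 6 and from 37.5 to 62.0 CPM in the others, with 0.25 ± 0.09 (adjusted p = 0.0616, edgeR). Both genes overlap between number 6 and the rest. RAB3GAP1 passed without weakly adherent 6, with a log2 fold change of 0.37 (adjusted p = 0.022, edgeR). In that fit 4231 genes passed in all. DESeq2 put both past the threshold, with log2 fold changes of -0.28 for RAB27A (adjusted p = 0.0463) and 0.27 for RAB3GAP1 (adjusted p = 0.0295). The share of all genes that DESeq2 called in number 6 is not given here. Beside the 27.9% of all genes called in edgeR, 2 of the 8 say nothing particular about these genes. RAB3D differed by 0.21 ± 0.13 and RAB27B by -0.47 ± 0.27 in number 6, neither past the threshold.

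RAB27B in number 7-8 stood 1.003 ± 0.29 (SE) above the mean of the other numbers on the log2 scale, at 68.1 CPM in the weakly adherent and 55.7 CPM in the unsorted library, but did not pass (adjusted p = 0.442, edgeR). RAB27A was 0.33 ± 0.13 higher there (adjusted p = 0.728, edgeR) and differed by -0.33 ± 0.11 in number 9 (adjusted p = 0.385, edgeR). The lone number 10 library had a RAB3GAP1 log2 fold change of -0.56 ± 0.16 (adjusted p = 0.215, edgeR, and 0.0457 in DESeq2), which assumes that this library varies like the others. The background for these in edgeR was 0% in number 4, 0% in number 5, 0.0658% in number 7-8, 0.0197% in number 9 and 0% in number 10. DESeq2 called 312 genes in all in number 10.

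The wider machinery around these GTPases gave 0 called genes in every adhesion comparison. The median log2 fold change in strongly over weakly adherent cells was 0.09 for the 15 tested RAB3 and RAB27 effectors of 18 listed, 0.05 for 16 of 17 RAB activators, inactivators and carriers, 0.10 for 7 of 8 other secretory RABs, -0.03 for 17 of 20 exocytic SNAREs and priming factors, 0.04 for the 9 exocyst subunits and 0.01 for 46 of 51 RAB GTPases outside the 8 genes, beside 0.02 over all genes tested. UNC13D, a priming factor bound by RAB27A in cytotoxic lymphocytes, had a log2 fold change of -0.06 ± 0.09 (SE) in strongly over weakly adherent cells. MLPH, the link between RAB27A and myosin on melanosomes, had -0.05 ± 0.12. GDI2, a carrier that keeps inactive RABs soluble, had -0.01 ± 0.19. Of the listed genes with the highest CPM, RAB10 differed by 0.16 ± 0.09, RAB11B by 0.01 ± 0.21, VAMP8 by 0.07 ± 0.24, VAMP3 by -0.05 ± 0.13, EXOC7 by -0.11 ± 0.13, RAB1B by -0.11 ± 0.11 and RAB7A by -0.03 ± 0.12, and none passed the test.

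**Figure D3:**
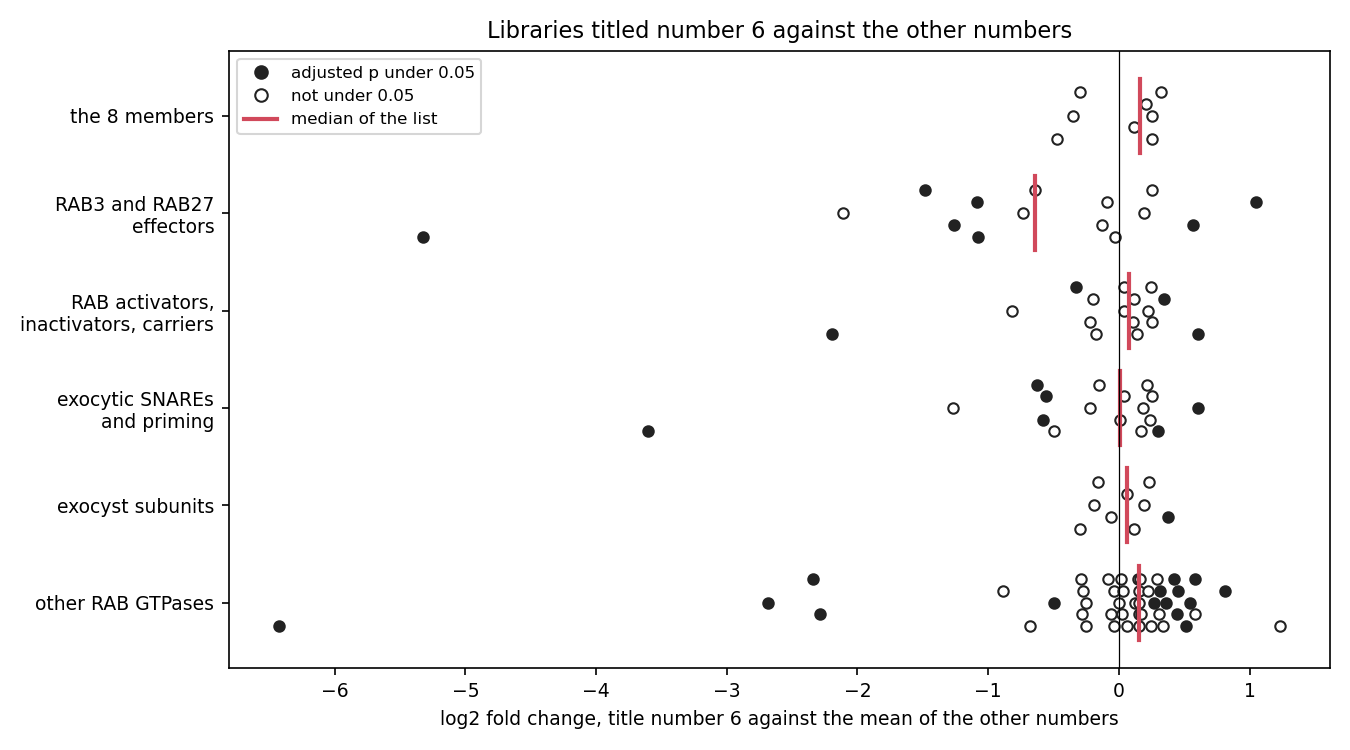
Log2 fold change of number 6 over the mean of the other title numbers (horizontal axis) for the 8 genes and 5 lists of their machinery; each circle is a gene, filled where the adjusted p is under 0.05, and red lines are medians. The 8 genes hold no filled circle, while 7 of 15 effectors and 15 of 46 other RAB GTPases do, beside 27.9% of all genes tested.

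Since 27.9% of all genes passed the test between number 6 and the other numbers, counts for this machinery near that share say nothing particular about it. Among the 15 effectors, 2 rose and 5 fell in number 6 (46.7% called), with a median log2 fold change of -0.64 beside 0.01 over all genes. SYTL1, a synaptotagmin-like protein that binds RAB27 proteins, fell to 11.7 to 19.2 CPM in number 6, against 26.8 to 62.5 CPM in the other 12 libraries, a log2 fold change of -1.48 ± 0.21 (SE, adjusted p = 0.000695, edgeR). SYTL5, of the same family, had 0 to 0.0267 CPM in number 6 and 0.0618 to 1.26 CPM elsewhere. EXPH5, a further RAB27 effector, fell to 5.04 to 6.56 CPM in number 6, against 6.57 to 21.5 CPM, and MYO7A, a myosin that can be tied to RAB27A through MYRIP, to 0.562 to 2.21 CPM, against 1.66 to 4.33 CPM. SYTL1, SYTL5 and EXPH5 did not overlap between number 6 and the rest, whereas MYO7A did; of all genes tested, 10.4% lay lower and 5.63% higher in number 6 without overlap.

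Of 17 SNAREs and priming factors, 2 rose and 4 fell in number 6 (35.3% called, near the share of all genes). SYT7, a calcium sensor of granule fusion, fell to 0.127 to 0.321 CPM in number 6, against 1.26 to 8.05 CPM in the other libraries. VAMP8, the vesicle SNARE of exocrine and platelet granules, fell by 0.58 on the log2 scale, to 184 to 235 CPM in number 6, but number 9 was as low, at 184 to 218 CPM. VAMP2, the synaptic vesicle SNARE, rose by 0.61 in number 6. CADPS2, a priming factor of dense-core vesicles, fell by 0.63. The vesicle SNAREs thus did not move one way, and the median of the list was 0.01.

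Of the other secretory RABs, 3 of 7 rose and 1 fell in number 6, a list too short to read its 57.1% against the share of all genes. RAB37, a RAB of secretory granules, fell to 2.77 to 4.39 CPM in number 6, against 5.69 to 59.9 CPM elsewhere, whereas RAB11B, RAB8B and RAB8A, which act in recycling and polarised export to the plasma membrane, rose by 0.58, 0.55 and 0.45 on the log2 scale. Of all 46 other RAB GTPases tested, a list that holds these 7, 10 rose and 5 fell (32.6% called, near the share of all genes). RAB25, an epithelial RAB of the RAB11 family, fell to 0 to 0.184 CPM in number 6, against 2.40 to 16.4 CPM elsewhere. RAB17, also known from epithelial cells, fell to 0.356 to 1.32 CPM in number 6, against 1.89 to 12.1 CPM elsewhere. RAB15 fell to 3.24 to 5.41 CPM in number 6, against 10.3 to 41.0 CPM. Without overlap between number 6 and the rest, 6 of the 46 lay lower, RAB37, RAB25, RAB17 and RAB15 among them, and 6 lay higher. Over all genes tested, 10.4% lay lower and 5.63% higher in this way. Among the 6 higher were RAB11B at 203 to 239.8 CPM against at most 197 CPM and RAB8A at 153 to 186 CPM against at most 147 CPM.

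Among the RAB regulators, 2 of 16 rose and 2 fell in number 6 (25% called, near the share of all genes). GDI2, a carrier of inactive RABs, rose by 0.60 on the log2 scale and RABGGTB, a subunit of the enzyme that attaches their lipid anchors, by 0.35. TBC1D30 and TBC1D10B, which like TBC1D8 hold a TBC domain, fell by 2.198 and 0.33. Both overlapped with the other libraries. TBC1D30 was low throughout, at 0.0763 to 0.491 CPM in number 6 against 0.247 to 4.415 CPM. TBC1D10B was at 48.0 to 71.9 CPM against 64.2 to 91.0 CPM. EXOC3 alone of 9 exocyst subunits rose, by 0.38. Without strongly adherent 6 the counts past the threshold were 3 effectors, 1 regulator, 1 other secretory RAB, 3 SNAREs and priming factors, 0 exocyst subunits and 4 other RAB GTPases, and 1981 genes in all, against 4242 with it. The effector count was 4 without unsorted 4, without unsorted 6 or without weakly adherent 10, the other RAB count was 9 without unsorted 6 or without unsorted 7-8, and the exocyst count was 0 without strongly adherent 4 or without weakly adherent 6 and 2 without weakly adherent 5. The libraries of number 6 also held the low CDH1 and high VIM. Muscle RNA was raised in number 6 too, but it was highest in strongly adherent 5, at 2531 CPM. In number 5, SYTL1 was at 38.8 to 62.5 CPM, above number 6, while MYO7A, at 1.78 to 4.33 CPM, overlapped with number 6. Leukocyte markers summed to 123 to 206 CPM in number 6 against 74.4 to 129 CPM elsewhere, through CD68 (111 to 193 CPM against 53.2 to 109.9 CPM), while the defining PTPRC was lower, at 0.107 to 0.399 CPM against 0.584 to 1.83 CPM, and TYROBP was at 0 throughout. Endothelial markers summed to 22.3 to 26.2 CPM in number 6 against 8.64 to 19.97 CPM. CDH5 was higher there, at 6.31 to 10.6 CPM against 0.191 to 5.23 CPM, and KDR ran higher with overlap. TEK and ERG ran lower with overlap, at 0.936 to 1.44 CPM against 1.05 to 2.17 CPM and 0.0267 to 0.246 CPM against 0.119 to 1.04 CPM. VWF was at most 0.254 CPM in number 6. Fibroblast markers summed to 525 to 809 CPM in number 6 against 704 to 1411 CPM. COL1A1 was at 132 to 271 CPM against 285 to 1059 CPM and COL3A1 at 17.7 to 28.2 CPM against 47.1 to 119 CPM. Other fibroblast markers went the other way, with overlap: COL6A3 was at 285 to 396 CPM against 50.2 to 305 CPM. FAP was at 21.6 to 36.7 CPM against 10.9 to 32.5 CPM. The part of all these markers in the list counts was not tested.

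The genes whose values ran most like those of RAB3D over the 15 libraries were RRN3, DDX31, TRAPPC11, RDH14 and C6orf120, out of 11625 candidates with a mean of at least 1 CPM. Likeness was the root-mean-square difference of log2 CPM after each gene was centred on its own mean, and it was 0.17 for RRN3 and 0.21 to 0.22 for the other 4, beside a root-mean-square spread of 0.32 for RAB3D around its own mean. RRN3, a factor of RNA polymerase I, has near-identical pseudogene copies, so its counts are uncertain. RAB3D was in turn the second gene on the list of TBC1D8, at 0.24 beside a spread of 0.44, after the clock gene PER2 at 0.23. For RAB27A these were GATAD1 and HMGA2, at 0.13 each beside a spread of 0.24, and for RAB27B CCT6B and NUDT12, at 0.34 and 0.35 beside 0.58. RAB3A had VPS37D and MAGED2 at 0.20 and 0.23 beside 0.37, RAB3B had LY75 and XK at 0.50 and 0.51 beside 0.82, RAB3GAP1 had PHF20 and SF3A1 at 0.08 each beside 0.17, and RAB3IP had DEK and ICK at 0.15 each beside 0.32. Apart from RAB3D beside TBC1D8, no member appeared on another member's list. The strongly adherent values of RAB3D and TBC1D8 were known when the genes were chosen, so their likeness is not independent of the choice.

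**Figure D4:**
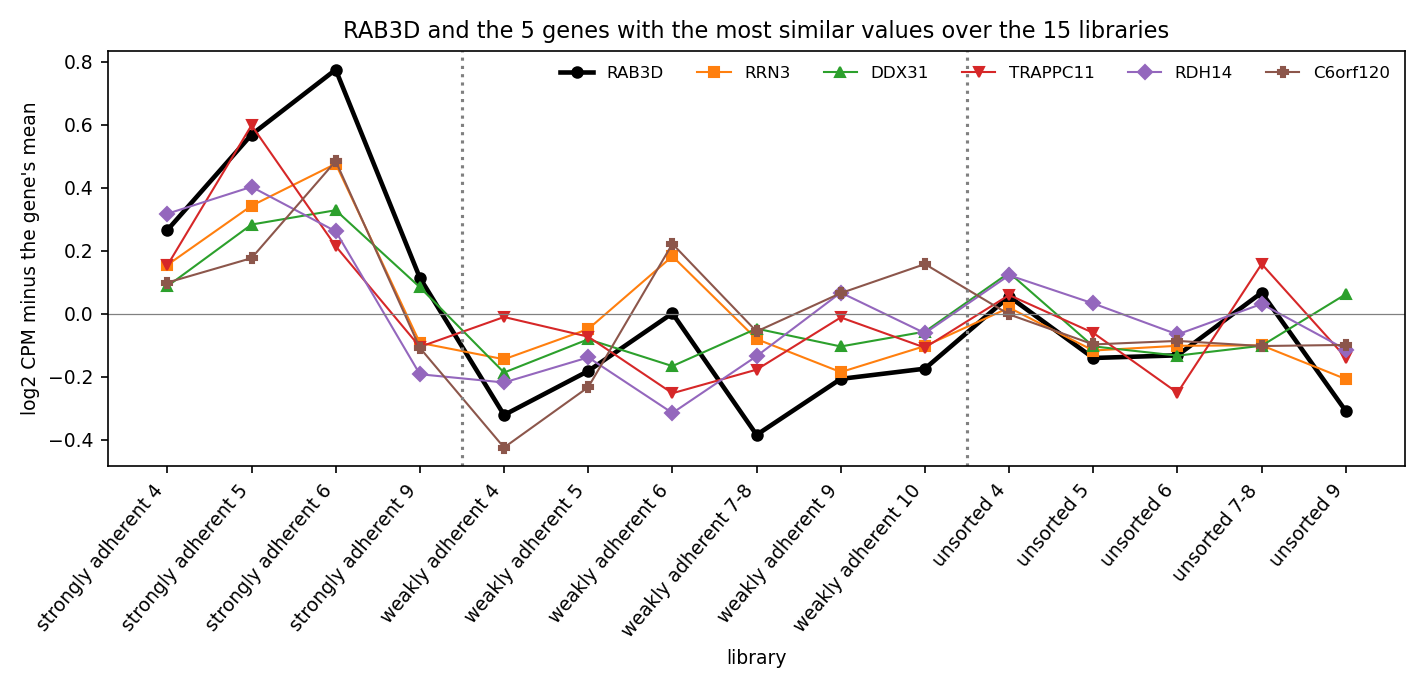
Log2 CPM minus each gene's own mean (vertical axis) for RAB3D (black) and its 5 most alike genes in the 15 libraries (horizontal axis: strongly adherent, weakly adherent, then unsorted, separated by dotted lines); lines only guide the eye. All 6 genes are highest in strongly adherent 5 or 6, and the spread of the 5 around RAB3D is smallest for RRN3, at 0.17.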

How the data were processed

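Bulk RNA of 15 libraries was sequenced as 50 bp single-end reads from a stranded kit, per the labels' protocols. The submitters' processing notes name cutadapt, FastQC, STAR, HTSeq and DESeq2 and the human build hg19, with no versions or settings. The authors deposited raw read counts per gene symbol; 4710 of 25382 genes had no count. The labels give mouse as the organism, the host of the tumours, while the symbols are human. A normalized table was not used.

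In edgeR 4.0.16 (R 4.3.3), 15190 genes passed filterByExpr, libraries were scaled by TMM and a robust quasi-likelihood F test was run, two-sided. P-values were adjusted by Benjamini-Hochberg over the 15190 genes, and 0.05 was the threshold. Adhesion comparisons used a fit with the adhesion group alone; title numbers used a fit with number and adhesion group. CPM are TMM-scaled, and log2 CPM add a prior count of 2. Tested fold changes have an SE from the F statistic and a 95% interval. The steps were checked on simulated counts. No pair of libraries agreed within sampling noise.

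The 8 genes and the other lists were chosen with earlier results of these data known. All 8 are named; of each other list, up to 4 genes with the largest changes past the threshold, or the 2 with the highest CPM where none passed, although CPM are not scaled to gene length. A gene that this rule would name is not reported here. DESeq2 1.42.0, other scaling, no filter and each library left out were the alternatives. Sequences and genome positions of these human genes are not given here.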

Additional observations from a re-analysis of the deposited data

Results flagged for a closer look

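In 24 sets of values, each a gene in a group, the highest or lowest library was set against the others by Dixon's test on log2 CPM, and 2 stood out, where chance gives about 1 in 20. RAB3GAP1 was at 59.5 CPM in strongly adherent 6, with the next value at 50.9 CPM, a gap of 0.865 of the log2 range of the 4 libraries. RAB3B was at 0.261 CPM in unsorted 5, with the next value at 0.650 CPM, a gap of 0.840 of the log2 range of the 5 libraries.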

How the results depend on the processing

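The direction and the side of the threshold held for most values under the other settings, and no gene passed in any adhesion comparison except with the title number as a replicate block in DESeq2, which called 30 genes in strongly against weakly adherent and 23 in strongly adherent against unsorted cells; the same block in edgeR called 0. Libraries of the same number correlated between 0.0164 and 0.767 in their deviations from group means, 11 of 13 pairs over 0.1. Of 14 libraries, 9 were closest to their own number. Pairing was to be used only if every pair was over 0.1. Strongly with weakly adherent 5 (0.0164) and unsorted with weakly adherent 4 (0.0328) were not. The main adhesion tests thus leave out the likeness that most numbers show. The joint test of title numbers called 3 genes without number 6, and 3344 genes and 2 of the 8 in DESeq2. DESeq2 called 27 genes in number 4, 91 in number 5, 96 in number 7-8, 102 in number 9 and 312 in number 10. Of the 8 genes it called 2 in number 6, where edgeR called 27.9% of all genes, and 1 in number 10. DESeq2 size factors in edgeR called 1 of the 8 in number 6, and the count of all genes in that fit is not given here. Without adhesion in the model, number 4 had 4 genes, number 5 had 1 and number 7-8 had 0, and in number 6 there were 2 regulators and 2 exocyst subunits; without the low-count filter, number 7-8 had 18 and number 10 had 9; without number 6, number 7-8 had 1 and number 9 had 79. The cause was not tested. Leaving out 1 library at a time gave 386 to 1621 genes and 0 to 1 of the 8 in the joint test, and 0 to 10 genes in number 4, 0 to 41 in number 5, 1981 to 4231 in number 6 (0 to 1 of the 8), 0 to 90 in number 7-8, 0 to 15 in number 9 and 0 to 228 in number 10. No log2 fold change of the 8 had passed a test in edgeR with all libraries, so every sign that turned was of a value not past the threshold or not tested. In strongly over weakly adherent cells RAB3GAP1 ran from -0.0895 to 0.0615 over 24 settings, negative in 8. RAB3B was negative in 1 of 24 there. In weakly adherent over unsorted cells RAB3A was 0.0205 without number 6 and 0.0199 without number 6 and strongly adherent 5, and RAB3GAP1 was 0.00581 and 0.0058 there, 0.0375 with the edgeR block and 0.0331 with the DESeq2 block. RAB3IP was 0.198 in both of these exclusions, 0.0454 with the edgeR block and 0.0422 with the DESeq2 block, and in strongly adherent over unsorted cells 0.0326 without number 6 and 0.127 without number 6 and strongly adherent 5. The exclusion of number 6 with strongly adherent 5 was chosen after the data were seen. With 1 library left out, weakly adherent over unsorted ran from -0.237 to 0.0247 for RAB3A, -0.216 to 0.0844 for RAB3B, -0.0244 to 0.152 for RAB27A, -0.0995 to 0.0344 for RAB3GAP1 and -0.156 to 0.19 for RAB3IP; strongly adherent over unsorted ran from -0.0946 to 1.25 for RAB3B and -0.104 to 0.00788 for RAB3GAP1; number 6 ran from -0.958 to 0.328 for RAB3B, -0.0838 to 0.549 for RAB3IP and -0.128 to 0.564 for TBC1D8. RAB3D in strongly over weakly adherent cells ran from 0.535 to 0.758. RAB3B, with few counts, is the gene that depth limits most among the 8.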

Other observations

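RAB27B had the widest spread relative to genes of similar level. Its SD of log2 CPM over the 15 libraries was 0.60, higher than in 95.7% of 5120 genes within 2-fold of its mean level, whose median SD was 0.22. TBC1D8, RAB3IP and RAB3D lay above 86.3%, 76.4% and 76.3% of such genes, RAB3B above 65.7%, RAB27A above 60.4%, and RAB3A and RAB3GAP1 above 27.7% and 26.8%. The ratio of RAB27B to RAB27A counts, not scaled to gene length, ran from 0.919 to 1.60 in strongly adherent libraries, from 0.763 to 1.67 in weakly adherent libraries and from 0.668 to 1.30 in unsorted libraries. The highest ratios were those of weakly adherent 7-8 and strongly adherent 4, and the lowest was that of unsorted 9.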
